A study of Mus musculus with 16 samples.

Results

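The genes described here are 6 transcripts that mark red blood cells: the adult alpha globins Hba-a1 and Hba-a2, the adult beta globins Hbb-bs and Hbb-bt, the erythroid heme synthesis gene Alas2 and the red cell membrane gene Slc4a1. They were taken by name from the 55492 genes of the deposited table, and all 6 were among the 20576 genes that passed the filter on low values, a mean normalized count of at least 10. The data are RNA sequencing of left ventricles from 16 male C57BL/6 mice aged 8 to 12 weeks, in 6 groups. PKM2fl/fl mice, the controls, carry loxP sites in both copies of the pyruvate kinase gene Pkm. PKM2-/- mice came from the same floxed line after a germline deletion made with CMV-Cre, and Cre was then bred out, so PKM2 is missing from every cell, red cell precursors included. Both genotypes were sampled unoperated (baseline, 2 mice each), 3 days after a sham operation (3 mice each) and 3 days after permanent ligation of the left anterior descending artery, which causes a myocardial infarction (MI, 3 mice each).

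Hemoglobin carries oxygen in red cells and is built from paired alpha and beta globin chains, each holding a heme group. Alas2 is the red cell form of the first enzyme of heme synthesis, and Slc4a1 is band 3, the anion exchanger that ties the red cell membrane to its skeleton. Young red cells, the reticulocytes, keep globin mRNA after they lose their nucleus, so blood left in a piece of heart adds these transcripts to the RNA of the tissue.

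On the genome, the alpha globin genes are neighbours on chromosome 11, at chr11:32283672-32284486 for Hba-a1 and chr11:32296492-32297310 for Hba-a2, both on the plus strand. The beta globin genes are neighbours on chromosome 7, at chr7:103826523-103827928 for Hbb-bs and chr7:103812524-103813923 for Hbb-bt, both on the minus strand. Alas2 is at chrX:150547417-150570622 on the plus strand and Slc4a1 at chr11:102348820-102365281 on the minus strand. These positions are RefSeq's for GRCm38.p6, the build that the submitters' processing notes name as mm10. For genes with an entry in the RefSeq promoter table, the 215 bases before the start are shown here, 5′ to 3′ on each gene's own strand. They are chr11:32283457-32283671 (Hba-a1), chr7:103827929-103828143 (Hbb-bs), chr7:103813924-103814138 (Hbb-bt) and chrX:150547202-150547416 (Alas2). A link between these sequences and the levels in the hearts was not tested. Capitals mark matches, on either strand, to GATA words (AGATAA or TGATAA or AGATAG or TGATAG), to the word CACCC and to the word CCAAT. On the gene's own strand they also mark TATAAA or CATAAA.
Hba-a1: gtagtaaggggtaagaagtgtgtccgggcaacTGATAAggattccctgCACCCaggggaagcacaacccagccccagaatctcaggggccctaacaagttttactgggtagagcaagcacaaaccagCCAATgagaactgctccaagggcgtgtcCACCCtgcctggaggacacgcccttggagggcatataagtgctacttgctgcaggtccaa
Hbb-bs: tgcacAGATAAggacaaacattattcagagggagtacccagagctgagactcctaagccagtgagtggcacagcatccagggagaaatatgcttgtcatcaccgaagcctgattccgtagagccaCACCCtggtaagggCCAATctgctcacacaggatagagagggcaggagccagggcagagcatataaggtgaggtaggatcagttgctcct
Hbb-bt: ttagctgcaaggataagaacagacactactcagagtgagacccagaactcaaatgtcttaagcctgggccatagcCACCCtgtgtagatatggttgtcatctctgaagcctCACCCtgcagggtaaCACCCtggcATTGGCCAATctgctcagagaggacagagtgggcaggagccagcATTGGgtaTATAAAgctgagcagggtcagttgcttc
Alas2: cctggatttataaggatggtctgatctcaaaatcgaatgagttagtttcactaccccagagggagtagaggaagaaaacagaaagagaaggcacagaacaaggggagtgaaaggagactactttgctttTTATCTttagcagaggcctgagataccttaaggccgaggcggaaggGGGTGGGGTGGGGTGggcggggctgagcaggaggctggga

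The promoters of Hba-a1 and Hba-a2 were identical over the 247 bases that align, so only the first is printed. A GATA word was found within 250 bases of the start in 4 of the 5 members searched, at -183 in Hba-a1, -186 in Hba-a2, -210 in Hbb-bs and, read on the opposite strand, at -86 in Alas2, and not in Hbb-bt. GATA words stood in 27.1% of the 27025 promoters of that length. CACCC, the word bound by Klf1 in beta globin promoters, was found in 5 of 5 members and in 51.3% of all promoters, with 3 abutting copies on the opposite strand in Alas2. CCAAT was found in the 4 globins and in 34.5% of all promoters. In Hbb-bt, 2 copies of CCAAT abut on opposite strands as ATTGGCCAAT. TATAAA was found in Hbb-bt alone among the members, and TATAAA or CATAAA in 13.6% of all promoters. A match is a description of the letters only.

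The copies of each globin are so alike that the split of reads between them is uncertain. The canonical transcripts of Hba-a1 and Hba-a2 matched at 646 of 647 aligned bases, with an unbroken identical run of 508 bases. Those of Hbb-bs and Hbb-bt matched at 613 of 660 aligned bases, with a run of 430 bases. How the authors' counting treated reads that fit both copies is not given in the sources used here, and the same holds for strand. Alas2 overlaps Apex2 and Mir3620 on the opposite strand, and Hbb-bs and Hbb-bt overlap noncoding genes on the opposite strand, and Hbb-bs also overlaps the pseudogene Hbb-bh3 on its own strand, so without strand the reads of such partners cannot be told apart. The summed 4 globins are therefore given beside the single genes.

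Library size ranged from 20623769 to 71855101 reads. The 186 rRNA-related loci of the table took between 15.8% and 46.1% of a library's reads, which matters below for scalings that use the total. The 10 cardiomyocyte markers summed to between 948775 and 1217020 normalized counts in the baseline and sham libraries and to between 204196 and 472283 after MI, so the libraries carried the RNA of working heart muscle. No 2 libraries of a group were alike within counting error. Normalized counts are the authors' values, reads divided by the DESeq2 size factor of the library. In bulk tissue, fewer red cells and less RNA per red cell cannot be told apart.

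Globin transcripts were a small part of the heart's RNA in every library. The 4 globins together took between 0.00702% and 0.0258% of the reads in 15 libraries. In the remaining library, PKM2-/- MI 1, they took 0.0882% (95% Wilson interval 0.0871 to 0.0893, counting error only). Per kilobase of canonical transcript, the median normalized count over the 16 libraries was 6419 for Hbb-bs, 1643 for Hba-a1, 983 for Hba-a2, 567 for Hbb-bt, 242 for Alas2 and 5.69 for Slc4a1. Myoglobin (Mb), the oxygen-binding globin of muscle, stood at 94030 on the same scale, above every blood globin.

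Hba-a1 was counted at 1260 and 1761 normalized counts in the PKM2fl/fl baseline libraries, 1083, 1129 and 1369 after sham and 1533, 1283 and 2346 after MI. In PKM2-/- hearts it was counted at 502 and 1166 at baseline, 778, 1140 and 876 after sham and 4647, 1613 and 853 after MI. The PKM2-/- MI group alone spans from below every PKM2fl/fl heart, at 853, to above every other heart, at 4647. Hba-a2 was counted at 630 and 350 at baseline, 619, 697 and 733 after sham and 700, 643 and 971 after MI in PKM2fl/fl hearts. Without PKM2 its values were 242 and 570, then 482, 748 and 342, then 2139, 728 and 325. The groups overlapped for Hba-a2 in every comparison.

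Hbb-bs, the beta globin with the most reads, was counted at 5057 and 2596 at baseline, 4979, 4132 and 4858 after sham and 5651, 4158 and 6300 after MI in PKM2fl/fl hearts. In PKM2-/- hearts it was counted at 2499 and 4035, then 5447, 4161 and 3134, then 12307, 4302 and 4223. With PKM2-/- MI 1 set aside, the MI hearts ran from 4158 to 6300 and the sham hearts from 3134 to 5447. Hbb-bt, the other adult beta globin, was counted at 455 and 202, then 515, 302 and 466, then 345, 345 and 523 in PKM2fl/fl hearts. The PKM2-/- hearts had 207 and 339, then 453, 481 and 195, then 1248, 461 and 226. Its groups overlapped in every comparison as well.

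Alas2 was the steadiest member. It was counted at 565 and 499 at baseline, 427, 488 and 593 after sham and 535, 427 and 521 after MI in PKM2fl/fl hearts. In PKM2-/- hearts it was counted at 501 and 471, then 463, 635 and 314, then 1096, 487 and 365. Its highest library was 3.49 times its lowest, against 4.92 times for Hbb-bs, 6.39 for Hbb-bt, 8.82 for Hba-a2 and 9.25 for Hba-a1. Slc4a1 was the rarest member and the most variable, at 34.6 times. It was counted at 26.7 and 10.6, then 28.8, 4.11 and 26.0, then 34.0, 25.7 and 25.6 normalized counts in PKM2fl/fl hearts. The PKM2-/- values were 9.32 and 10.995, then 38.6, 91.4 and 19.4, then 142, 41.3 and 8.66. Its lowest library, PKM2fl/fl sham 2, held 4 reads and its highest, PKM2-/- MI 1, held 175.

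**Figure D1:**
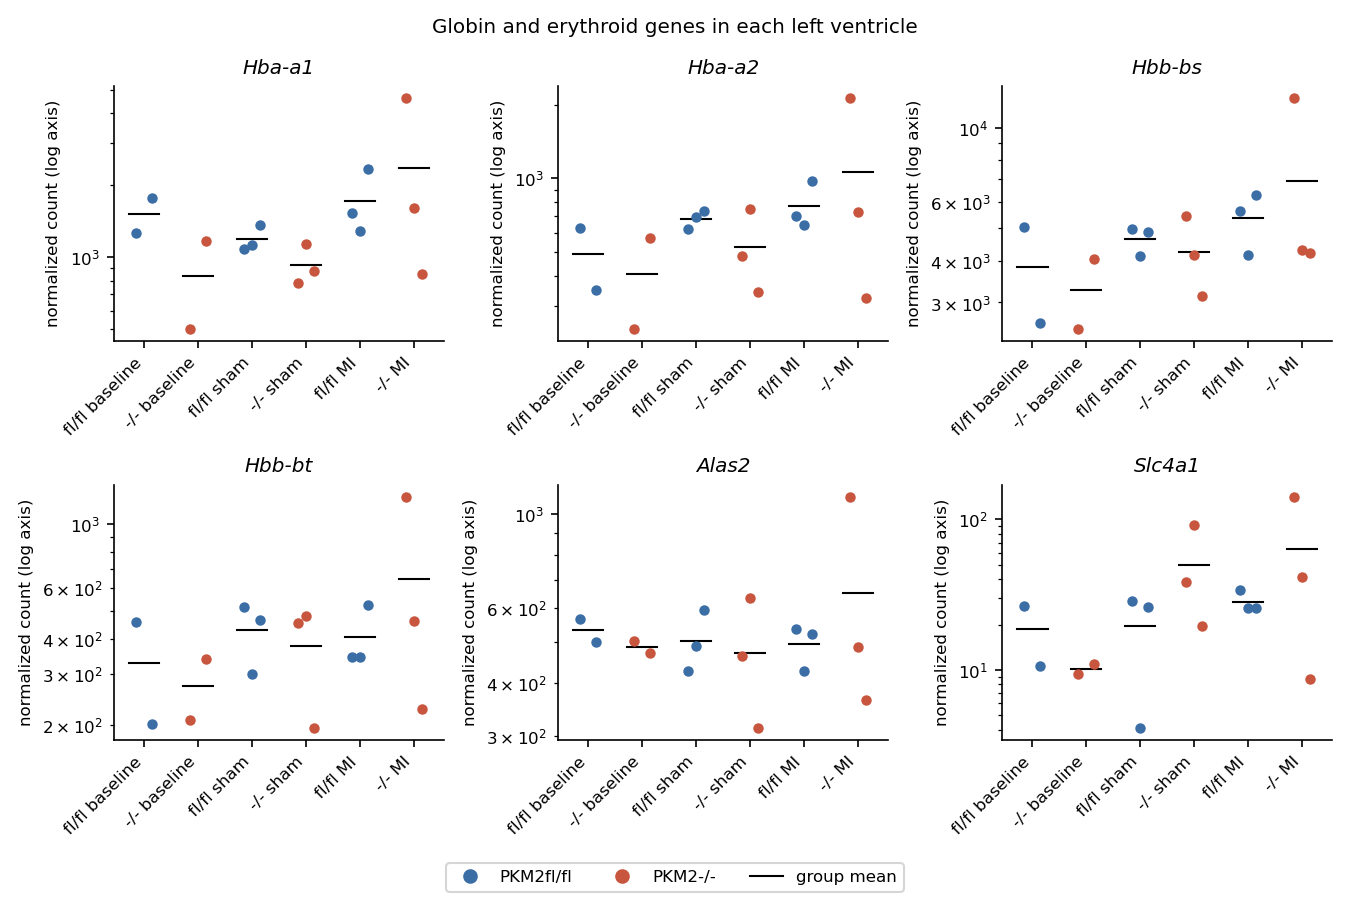
Normalized count (log axis) of the 6 genes in each of the 16 left ventricles, by genotype (blue PKM2fl/fl, red PKM2-/-) and condition. Each point is a library and each bar a group mean, and the library PKM2-/- MI 1 is the highest point in all 6 panels, from 142 for Slc4a1 to 12307 for Hbb-bs.

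Over the groups, the mean of the summed globins was highest in PKM2-/- MI hearts at 11024 ± 8103 normalized counts (SD, n = 3). It was followed by 8266 ± 1856 in PKM2fl/fl MI (n = 3), 6961 ± 618 in PKM2fl/fl sham (n = 3), 6156 ± 1762 in PKM2fl/fl baseline (n = 2), 6079 ± 1364 in PKM2-/- sham (n = 3) and 4780 ± 1880 in PKM2-/- baseline (n = 2). Every group overlapped the next in this order, and each gap was smaller than the larger SD of the pair. For each of the 6 genes, too, neighbours in the order of group means overlapped. The single gap over the larger SD was that of Hba-a1 between PKM2fl/fl sham, 1194 ± 153, and PKM2-/- sham, 931 ± 187 (SD, n = 3 each). PKM2-/- MI had the highest mean in all 6.

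That position came from a single library. PKM2-/- MI 1 was the highest of the 16 libraries for all 6 members, and it was the highest for 12.9% of all genes tested. Its summed globins, 20342 normalized counts, were 3.12 times the median of the other 15 libraries and 2.01 times the next highest, PKM2fl/fl MI 3 with 10141. The excess over the median of the other libraries was 3.99-fold for Hba-a1, 3.40-fold for Hba-a2, 2.91-fold for Hbb-bs, 3.62-fold for Hbb-bt, 2.25-fold for Alas2 and 5.52-fold for Slc4a1. The other 2 PKM2-/- MI hearts had summed globins of 7104 and 5626, inside the range of 3451 to 10141 of the rest.

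The make-up of the globin reads was followed as shares. Alpha globin made up between 17.6% and 43.0% of the globin reads, with a median of 28.4%. The highest share came from PKM2fl/fl baseline 2, and the next highest was 33.4%. The same library had the highest share of Hba-a1 among alpha reads, 83.4% against 60.4% to 72.4% in the other libraries. Hbb-bs took between 89.6% and 94.9% of the beta globin reads in every library. In PKM2-/- MI 1, alpha globin made up 33.4% of the globin reads, Hba-a1 68.5% of the alpha reads and Hbb-bs 90.8% of the beta reads.

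Alas2 and Slc4a1 were followed per 100 globin reads. Alas2 stood between 5.14 and 14.5 reads per 100 globin reads, highest in PKM2-/- baseline 1, the library with the fewest globin transcripts. The mean after MI was 6.09 ± 0.826 (SD, n = 3) in control hearts and 6.24 ± 0.764 (n = 3) without PKM2. It was 7.24 ± 1.13 and 7.70 ± 1.77 after sham (n = 3 each), and 8.90 ± 1.79 and 11.1 ± 4.82 at baseline (n = 2 each). The sham and MI ranges overlapped in both genotypes. In PKM2fl/fl hearts the baseline values were 7.64 and 10.2, above the MI range of 5.14 to 6.63. In PKM2-/- hearts they were 7.71 and 14.5, above the MI range of 5.39 to 6.86. These differences were not tested. Slc4a1 ranged from 0.0656 to 1.40 per 100, highest in PKM2-/- sham 2. Myoglobin reads ranged from 155 per 100 globin reads in PKM2-/- MI 1 to 3672 in PKM2-/- baseline 1, and Mb itself was lower after MI.

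**Figure D2:**
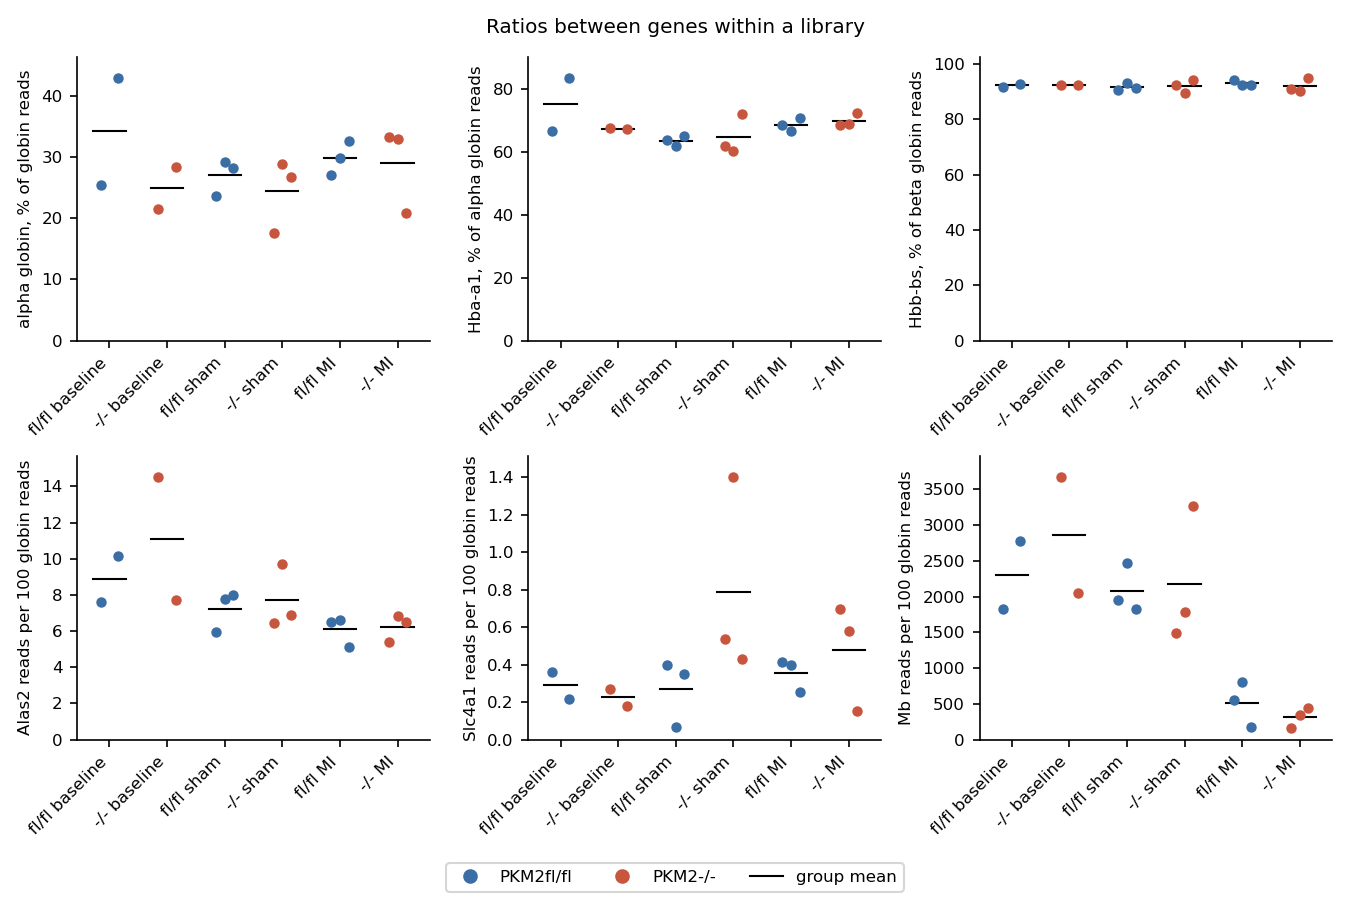
Shares (percent) of alpha globin among globin reads, of Hba-a1 among alpha reads and of Hbb-bs among beta reads, and reads of Alas2, Slc4a1 and Mb per 100 globin reads, in each library (points) with group means (bars). The Hbb-bs share lies between 89.6% and 94.9% throughout, and PKM2fl/fl baseline 2 stands apart in the first 2 panels at 43.0% and 83.4%.

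Whether the loss of PKM2 changed the red cell transcripts was asked at baseline, after sham and after MI. None of the 6 genes was called different between the genotypes at any of these. Calls were made by limma on log2(normalized count + 1) over all 16 libraries, and a gene was called when its adjusted p was below 0.05 and its change 2-fold or more. At baseline, 0 of 6 members were called, against 2 genes or 0.00972% of all tested, and 0 had an unadjusted p under 0.05, against 3.64%. After sham, 0 members were called against 0.00486% of genes, and 0 had an unadjusted p under 0.05 against 9.95%. After MI the counts were 0 against 0.413% and 0 against 17%. edgeR on the recovered reads called 0 members as well in these 3 comparisons. DESeq2 also called 0, but at baseline it gave an adjusted p to 2 of the 6 members only, Hba-a1 and Hbb-bs, and in the other 2 comparisons to all 6.

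At baseline Hba-a1 had the largest difference, a log2 change of -0.96 (SE 0.55, 95% interval -2.14 to 0.22, limma adjusted p = 1). It was -0.35 without PKM2-/- baseline 1 and -1.57 without PKM2-/- baseline 2. Its 2 PKM2-/- libraries lay below its 2 PKM2fl/fl libraries, as was so in one direction or the other for 34.9% of all genes tested. The other 5 members had log2 differences between -0.69 and -0.13, and their groups overlapped. The lowest of these, that of Slc4a1, was -0.062 without PKM2fl/fl baseline 1 and -1.32 without PKM2fl/fl baseline 2. The median over the 6 members was -0.26 beside -0.00342 over all genes tested. With groups of 2, an exact permutation test cannot go below p = 0.333.

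After sham surgery, the 4 globins and Alas2 had log2 differences between -0.45 and -0.14, and Slc4a1 had 1.40 (SE 0.85, interval -0.41 to 3.20, limma adjusted p = 0.640). The groups overlapped for all 6 genes, whereas 16.5% of all genes tested did not overlap. The median over the 6 was -0.21. Without PKM2-/- sham 2, the heart with 91.4 normalized counts, the Slc4a1 value was 0.83, and without PKM2fl/fl sham 2, the heart with 4 reads, it was 0.57.

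After MI, all 6 log2 differences were above 0, between 0.07 for Hba-a2 and 0.41 for Slc4a1, with a median of 0.22 and limma adjusted p-values between 0.750 and 0.964. All 6 turned negative without PKM2-/- MI 1, to values between -0.64 for Hba-a2 and -0.22 for Alas2. The direction therefore rested on that heart. The groups overlapped for all 6 genes, whereas 18.9% of all genes tested did not overlap. With all libraries, the intervals were -0.81 to 1.12 for Hba-a1, -1.01 to 1.15 for Hba-a2, -0.57 to 0.96 for Hbb-bs and -0.72 to 1.43 for Hbb-bt. A 2-fold higher level lay inside the interval of every globin but Hbb-bs, and a 2-fold lower level inside that of Hba-a2 alone.

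**Figure D3:**
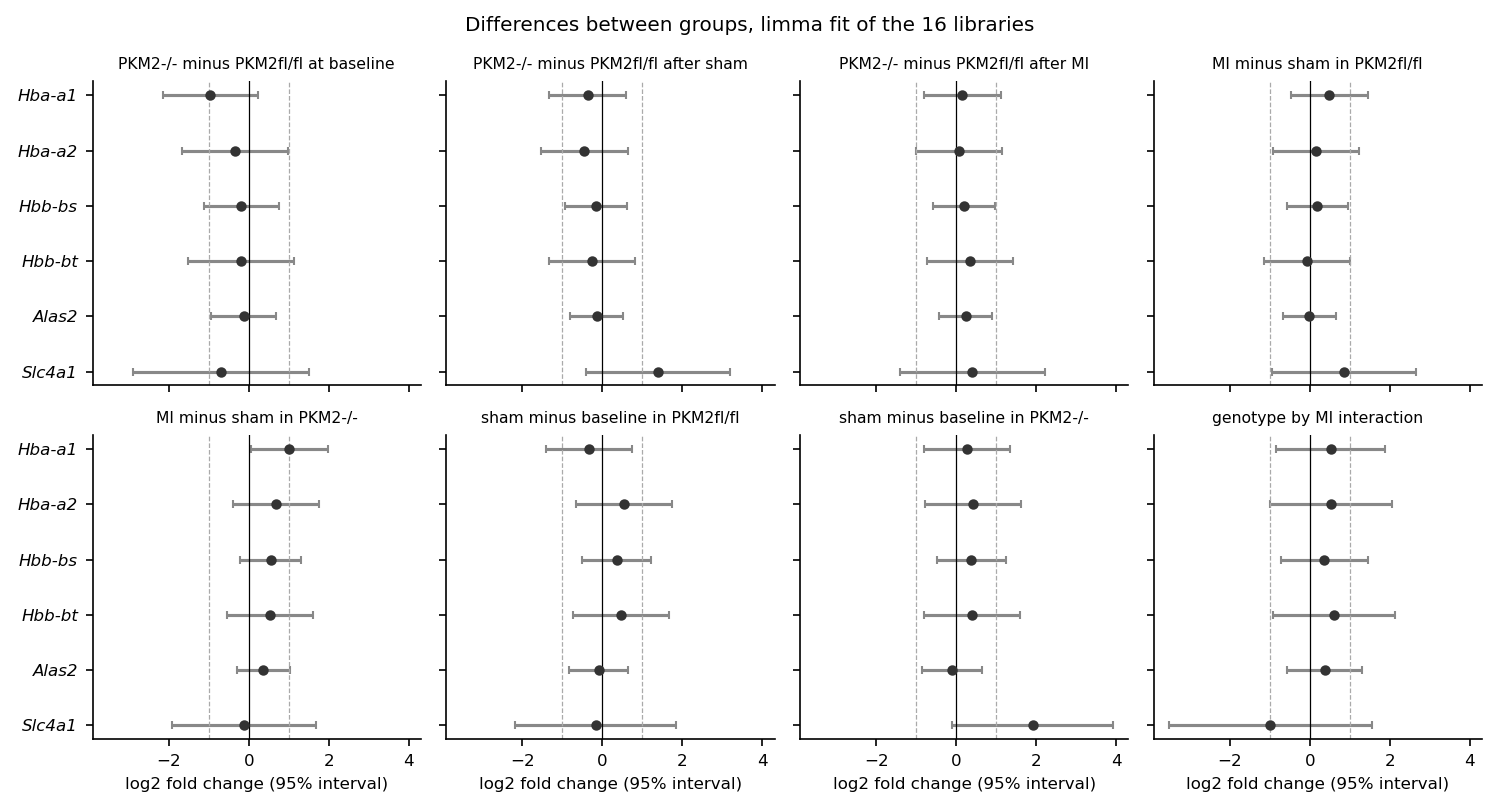
Log2 fold change (point) with its 95% interval (bar) for the 6 genes in each of 8 comparisons, from a limma fit of log2(normalized count + 1) in 16 libraries; dashed lines mark a 2-fold change. Of the 48 intervals, only that of Hba-a1 for MI minus sham in PKM2-/- hearts, 0.05 to 1.98, leaves out 0.

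With the authors' size factors and all libraries, limma called none of the red cell genes between MI and sham in either genotype. In PKM2fl/fl hearts, 0 of 6 members were called by limma between MI and sham, against 23.5% of all genes, and 0 had an unadjusted p under 0.05, against 55.8%. The groups overlapped for all 6, whereas 59% of all genes tested did not overlap. edgeR and DESeq2 called 0 as well. The log2 changes ran from -0.07 for Hbb-bt to 0.87 for Slc4a1 (SE 0.85), with Hba-a1 at 0.49 (SE 0.45), Hbb-bs at 0.19 (SE 0.36), Hba-a2 at 0.16 (SE 0.51) and Alas2 at -0.02 (SE 0.31). The Slc4a1 value was 0.042 without PKM2fl/fl sham 2, the heart with 4 reads, and up to 1.31 without another library. The median of the 6 was 0.17 beside -0.00254 over all genes tested.

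Between MI and sham in PKM2-/- hearts, limma again called 0 of 6 members, against 28.8% of all genes, and 1 member had an unadjusted p under 0.05, against 61%. That was Hba-a1, with a log2 change of 1.01 (SE 0.45, interval 0.05 to 1.98, limma adjusted p = 0.0687). Hba-a2 had 0.68 (SE 0.51), Hbb-bs 0.55 (SE 0.36), Hbb-bt 0.54 (SE 0.50), Alas2 0.36 (SE 0.31) and Slc4a1 -0.12 (SE 0.85). The Hba-a1 change fell short of the threshold here and passed it elsewhere: the log2 change was 1.35 with edgeR (adjusted p = 0.0204) and 1.35 with DESeq2 (adjusted p = 0.0312). Without PKM2-/- MI 1 it was 0.35 (limma adjusted p = 0.414), and without PKM2-/- MI 3 it was 1.57 (limma adjusted p = 0.00486). The groups overlapped for all 6 genes, and 62.3% of all genes tested did not overlap in this comparison.

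The calls in this comparison depended on the scaling. PKM2-/- MI libraries had 15.999%, 31.0% and 34.4% of their reads on rRNA-related loci, and the PKM2-/- sham libraries 28.6%, 29.4% and 46.1%. Scaled to total reads, the median of all genes tested moved by 0.52 on the log2 scale and limma called all 4 globins, with log2 changes of 1.52 for Hba-a1, 1.19 for Hba-a2, 1.06 for Hbb-bs and 1.05 for Hbb-bt. Relative to that shift the globins stood about where the authors' size factors put them. Scaled to reads outside the rRNA-related loci, the median of all genes moved by 0.36 and Hba-a1 alone was called, at 1.36.

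The difference between genotypes in the response to MI was tested as an interaction. limma called 0 of 6 members and 0% of all genes, and 0 members had an unadjusted p under 0.05, against 8.28% of all genes. edgeR called 0 members and 0 genes, and DESeq2 called 0 members and 36 genes. The interaction on the log2 scale was 0.53 for Hba-a1, 0.52 for Hba-a2, 0.36 for Hbb-bs, 0.61 for Hbb-bt, 0.38 for Alas2 and -0.99 for Slc4a1, with standard errors from 0.44 to 1.20. Without PKM2-/- MI 1 the values of the 4 globins and Alas2 lay between -0.19 and -0.04, and that of Slc4a1 was -1.93.

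Sham hearts were also compared with baseline hearts, and they are the same sham hearts that served the MI comparisons. In PKM2fl/fl hearts, limma, edgeR and DESeq2 called 0 of 6 members, against 0.17% of all genes in limma, and 0 had an unadjusted limma p under 0.05, against 8.81%. The groups overlapped for all 6, whereas 32.5% of all genes tested did not overlap. The log2 changes lay between -0.33 for Hba-a1 and 0.54 for Hba-a2. The PKM2-/- hearts likewise gave 0 of 6 called by limma, edgeR and DESeq2, against 2.66% of all genes in limma, and 0 with an unadjusted limma p under 0.05, against 18.9%. Here Slc4a1 had the largest change of any member in any comparison, a log2 change of 1.92 (SE 0.95, interval -0.09 to 3.93, limma adjusted p = 0.294). Its 3 sham values lay above its 2 baseline values, as was so in one direction or the other for 34.5% of all genes tested. The baseline libraries held 8 and 6 reads of Slc4a1. The other 5 members had log2 changes between -0.10 and 0.42.

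From heart to heart, the 4 globins varied together. Over the 16 libraries, the 6 pairs of globins had Pearson r from 0.70 to 0.91 and Spearman rho from 0.43 to 0.81. Among all 15 pairs of members tested by permutation, all 6 globin pairs had an adjusted p under 0.05 for r and 4 of 6 for rho. Hba-a2 with Hbb-bt was closest (r = 0.91, permutation p = 3e-05, adjusted p = 0.0003; rho = 0.81, permutation p = 0.00032, adjusted p = 0.0048). Hba-a1 with Hbb-bt was least close by r (r = 0.70, permutation p = 0.00486, adjusted p = 0.00758; rho = 0.46, permutation p = 0.0715, adjusted p = 0.0975). After the 2 libraries farthest from the median were left out, PKM2-/- MI 1 and PKM2-/- baseline 1, r was 0.82 for Hba-a2 with Hbb-bt, 0.77 for Hbb-bs with Hbb-bt and 0.67 for Hba-a2 with Hbb-bs. It was 0.15 for Hba-a1 with Hbb-bs and 0.26 for Hba-a1 with Hbb-bt, so the relation of Hba-a1 to the beta globins rested on those libraries.

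Alas2 had r from 0.67 to 0.77 with the globins and rho from 0.40 to 0.66, with an adjusted p under 0.05 in 4 of 4 pairs for r and 1 of 4 for rho. Slc4a1 had r from 0.53 to 0.78 and rho from 0.36 to 0.73, with 4 of 4 and 3 of 4. Without the 2 farthest libraries of each pair, r was between 0.36 and 0.69 for Alas2 and between 0.09 and 0.73 for Slc4a1. With group means taken out, so that only hearts of the same group were compared, the globin pairs had r from 0.68 to 0.92, and 4 of 6 had an adjusted p under 0.05 by the exact permutation of libraries within groups. The same held for 2 of the 4 pairs of Alas2 with a globin and 2 of the 4 pairs of Slc4a1 with a globin. By rho, from 0.39 to 0.84 in the globin pairs, the counts were 2 of 6, 1 of 4 and 0 of 4. Without the 2 farthest libraries, PKM2-/- MI 1 and PKM2-/- MI 3, r within groups was from 0.31 to 0.83 for the globin pairs. With the globins it was then from 0.29 to 0.60 for Alas2 and from 0.11 to 0.74 for Slc4a1. Scaled to total reads, the globin pairs had r from 0.82 to 0.95 over all 16 libraries. All members of a library share its depth and scaling.

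The 10 genes outside the list whose levels were most like the mean log2 of the 4 globins over the 16 libraries included Gal3st4 (r = 0.84), Mir5130 (0.84), Nt5c2 (0.84), Tent5c (0.83), Mindy1 (0.81), Ino80c (0.80), Arf2 (0.80), Ddx39b (0.79) and Get4 (0.78). On the same measure Alas2 had r = 0.78 and Slc4a1 r = 0.71. PKM2-/- MI 1 was the highest library for all 10 genes, and over the other 15 libraries their r lay between 0.44 for Get4 and 0.73 for Mir5130. By deviations from group means the 10 were Mir5130 (r = 0.91), Slc12a2 (0.90), Pde8a (0.89), Bpgm (0.89), Gal3st4 (0.88), Mindy1 (0.88), Gm43055 (0.88), Ino80c (0.88), Tbcel (0.88) and Arf2 (0.88). Over the other 15 libraries the levels of these 10, group means left in, had r from -0.13 for Slc12a2 to 0.73 for Mir5130. On that measure Gm43055 was at 0.26 and Bpgm at 0.30. As the 2 measures differ, a lower value here cannot be put down to leaving out PKM2-/- MI 1.

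Of the genes named, Bpgm and Tent5c are in the list of other erythroid genes, whose tested members had r with the globins from -0.50 for Car1 to 0.83 for Tent5c. Bpgm, the enzyme that makes the 2,3-bisphosphoglycerate by which red cells tune oxygen release, was at 520 normalized counts in PKM2-/- MI 1 and between 225 and 367 elsewhere. Tent5c, a poly(A) polymerase of differentiating red cells, was at 801 there and at a median of 266 over all libraries.

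Globins of the embryo were barely counted, and so were the theta globins Hbq1a and Hbq1b. Hbb-y had at most 20 reads in a library and none in 12 of the 16. Hba-x had at most 2 reads, Hbb-bh1 and Hbb-bh2 at most 1, and Hbq1a and Hbq1b at most 4. Genes of the nucleated precursor were equally scarce: Gata1 had at most 6 reads, Klf1 at most 8, Pklr at most 6, Epb42 at most 10, Hemgn at most 10 and Gfi1b at most 17, the last in PKM2-/- MI 1. Tspo2 had none in any of the 16 libraries. Myoglobin, the muscle globin, fell after MI, from 143320 ± 10049 to 38382 ± 18489 normalized counts in PKM2fl/fl hearts (SD, n = 3 each, log2 change -2.05, SE 0.33, limma adjusted p = 0.000104). In PKM2-/- hearts it fell from 123686 ± 22042 to 26770 ± 4225 (SD, n = 3 each, log2 change -2.20, SE 0.33, limma adjusted p = 3.81e-05). Cygb, the globin of fibroblasts, was not called in either genotype.

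The genes that build heme were measured for the whole pathway, which every respiring cell uses. Of the 16 other heme synthesis genes, 0 rose and 2 fell after MI in PKM2fl/fl hearts, and 0 rose and 5 fell in PKM2-/- hearts, with median log2 changes of -0.80 and -0.86. Of all genes tested, 12.4% rose and 11.1% fell after MI in PKM2fl/fl hearts, and 14.5% rose and 14.3% fell in PKM2-/- hearts. Uros, the uroporphyrinogen III synthase, fell in PKM2-/- hearts from 590 ± 48.6 to 269 ± 23.7 normalized counts (log2 change -1.13, SE 0.11, limma adjusted p = 1.3e-06). Abcb10, a mitochondrial transporter, changed by -1.06 and Cpox, the coproporphyrinogen oxidase, by -1.02 in the same hearts. Fech, which inserts the iron, changed by -0.94 and did not reach 2-fold. Slc25a37, the mitoferrin that feeds iron to mitochondria of red cell precursors, was the only one of the 16 to be highest in PKM2-/- MI 1, at 822 normalized counts against a median of 462.

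Of the 16 tested genes of the red cell membrane and skeleton list, 2 rose and 5 fell after MI in PKM2fl/fl hearts, and 2 rose and 7 fell in PKM2-/- hearts, with median log2 changes of -0.74 and -0.90. Among all genes tested, 12.4% rose and 11.1% fell in PKM2fl/fl hearts, and 14.5% rose and 14.3% fell in PKM2-/- hearts. Several of these genes have known roles in heart muscle and vessels. Ank1, an ankyrin, fell from 4998 ± 492 to 1253 ± 154 normalized counts in PKM2-/- hearts (log2 change -1.997, SE 0.23, limma adjusted p = 3.52e-06), and Aqp1, the water channel of red cells and of endothelium, changed by -1.496. Mpp1, a palmitoylated scaffold of the red cell membrane, rose by 1.32. Kel and Add2, which were low in most libraries, were highest in PKM2-/- MI 1, at 47.0 and 43.8 normalized counts against medians of 7.42 and 10.6.

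Of the 7 tested erythroid transcription factors, 1 rose and 0 fell after MI in each genotype, beside 12.4% and 14.5% of all genes tested rising. The factor that rose was Nfe2, which also serves megakaryocytes and neutrophils, with log2 changes of 1.52 (limma adjusted p = 0.0137) and 1.47 (0.0143). Of the 12 other erythroid genes tested, 0 rose and 1 fell in PKM2fl/fl and 0 rose and 2 fell in PKM2-/- hearts. The shares of all genes tested that fell were 11.1% and 14.3%. Car1, a carbonic anhydrase of red cells, fell by 1.96 and 1.90 on the log2 scale, and Tmcc2 fell by 1.03 in PKM2-/- hearts. Of the 51 genes tested in these 4 erythroid lists, 8 or 15.7% were highest in PKM2-/- MI 1, near the 12.9% of all genes tested.

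Some genes that clear hemoglobin and heme rose after MI. Of the list, 5 of 15 rose and 0 fell in PKM2fl/fl hearts, and 6 of 15 rose and 0 fell in PKM2-/- hearts. The shares of all genes tested that rose were 12.4% and 14.5%. Hmox1, the heme oxygenase that breaks heme down, stood between 120 and 416 normalized counts in the 10 baseline and sham libraries and between 3985 and 6829 in the 6 MI libraries. Its log2 changes were 4.501 (SE 0.29, limma adjusted p = 5.15e-08) in PKM2fl/fl and 4.54 (SE 0.29, adjusted p = 3.6e-08) in PKM2-/- hearts. Ftl1, the light chain of the iron store ferritin, rose by 1.77 and 2.21, and Slc11a1, an iron transporter of phagocytes, by 2.68 and 2.45. Lrp1, the receptor for heme bound to hemopexin, rose by 1.19 and 1.21. Hmox1 was at 6145 and 6829 in PKM2-/- MI 2 and MI 3 and at 6629 in PKM2-/- MI 1. The summed globins of these hearts were at 7104, 5626 and 20342. A relation between the 2 after MI was not tested.

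Markers of other blood cells were called after MI. Among platelet markers, 2 of 7 tested genes rose and 0 fell in PKM2fl/fl hearts, and 3 rose and 1 fell in PKM2-/- hearts. For all genes tested, the shares rising were 12.4% and 14.5% and those falling 11.1% and 14.3%. The summed platelet list of 12 stood between 356 and 590 normalized counts in the baseline and sham libraries and between 1222 and 3446 after MI. Its highest library was PKM2-/- MI 1, and of its 7 tested genes Pf4, Ppbp and Itga2b, or 42.9%, were highest there. The share was 12.9% for all genes tested and 37.5% for the 8 endothelial markers. Gp1ba, another of the 7 platelet genes, was lowest in that library, at 31.6 normalized counts. Pf4, the platelet factor made by megakaryocytes and some macrophages, was counted at 2236 in that library and at 1613 and 1428 in the other 2 of its group. The part of these cells in the globin values of that heart was not tested.

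Neutrophil markers summed to between 104 and 229 normalized counts at baseline, 256 and 1547 after sham and 1491 and 5654 after MI, and 4 of 7 tested genes rose after MI in each genotype with 0 falling. Of the neutrophil list, 2 of 7 genes were highest in PKM2-/- MI 1. Macrophage markers summed to between 10971 and 13126 at baseline, 14161 and 20263 after sham and 31992 and 45549 after MI, with 6 of 10 genes rising in PKM2fl/fl and 7 of 10 in PKM2-/- hearts. B and T cell markers summed to between 58.2 and 151 in all libraries, and 2 of 5 tested genes rose after MI in each genotype with 0 falling. The sum of 94.0 in PKM2-/- MI 1 was the lowest of the 6 MI hearts. Endothelial markers summed to between 27428 and 32596, and 0 of 8 were called after MI in either genotype, with 4 and 6 at an unadjusted p under 0.05. Of the 10 cardiomyocyte markers, 9 fell in PKM2fl/fl and 10 in PKM2-/- hearts. Beside the counts of these lists, 12.4% of all genes tested rose and 11.1% fell after MI in PKM2fl/fl hearts. In PKM2-/- hearts 14.5% rose and 14.3% fell. Of the 4 tested atrial markers, only Nppa, which the stressed ventricle also makes, rose, by 1.28 and 1.33. Bmp10, an atrial marker, had at most 4 reads in a library. The 5 atrial markers summed to between 1640 and 3630 normalized counts at baseline, 2567 and 6987 after sham and 9080 and 11653 after MI. For sham against baseline the median log2 change of the 4 tested was 2.99 in PKM2fl/fl and 1.38 in PKM2-/- hearts. limma called 0 and 1 of the 4, beside 0.17% and 2.66% of all genes tested. Between genotypes at baseline their log2 differences ran from -0.81 to 3.49, with 0 called. The part of atrial tissue was not tested.

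**Figure D4:**
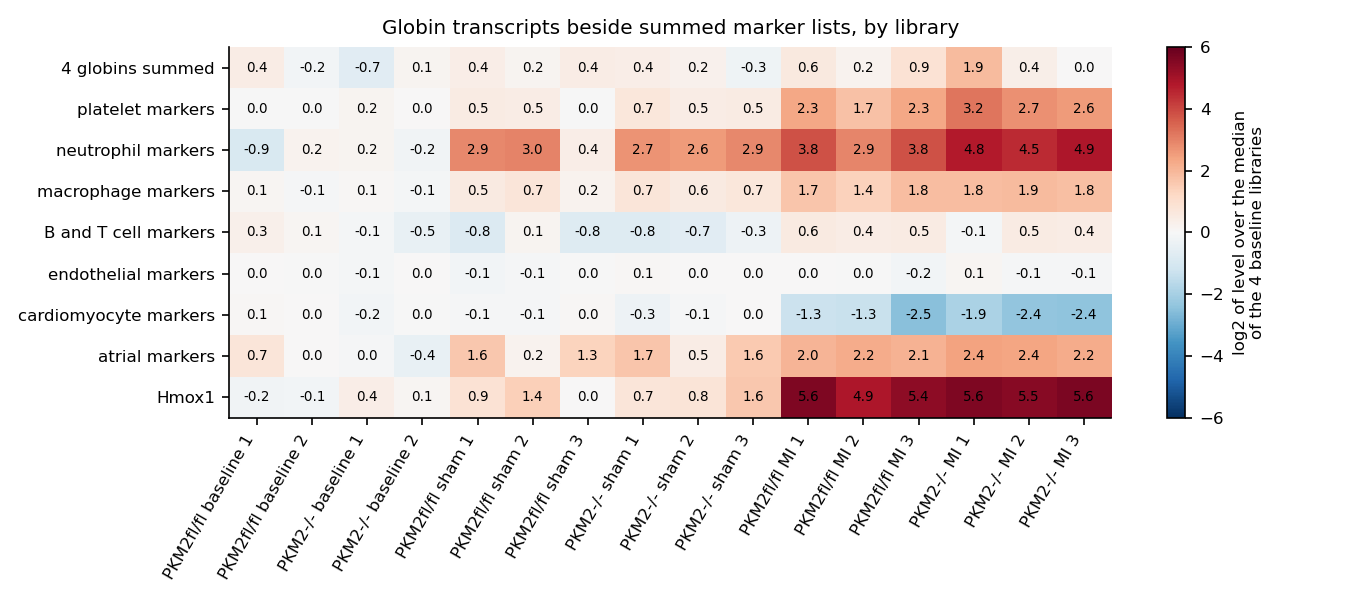
Summed level of the 4 globins, of 7 marker lists and of Hmox1 in each library, as log2 of the level over the median of the 4 baseline libraries (colour and printed value). Globins lie between -0.7 and 0.9 in 15 libraries and at 1.9 in PKM2-/- MI 1, while platelet, neutrophil and macrophage markers and Hmox1 are above 1 in all 6 MI libraries.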

How the data were processed

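RNA sequencing was done on rRNA-depleted RNA of left ventricles, 1 library per mouse, and libraries were put into 6 groups from the sample labels. The submitters' processing notes name HISAT2, featureCounts, DESeq2 and the build mm10. Strand and multi-mapping settings are not given in the sources used here. The deposited table gives a normalized signal per gene and sample, in which the authors had divided reads by the DESeq2 size factor of the sample. The same deposited table holds the authors' own baseline comparison (a mean signal, a log2 fold change with its standard error, a Wald score and a p-value with its adjusted form), which was not used. There were 0 columns without a sample.

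The values of a sample differ by a constant step, worth 1 read. Division by that step recovered the reads, and 100% came out whole within 0.01. Shares of reads carry 95% Wilson intervals. The test planned was edgeR for counts and limma-trend for normalized values. As the deposited values are normalized, limma 3.58.1 (R 4.3.3) was fitted to log2(value + 1) in all 16 libraries with the 6 groups as terms, after a filter of a mean of at least 10, with Benjamini-Hochberg adjustment over 20576 genes. Fold changes on this scale understate those of low genes such as Slc4a1. The fit was tested on simulated counts, with the same spread beyond counting error for every gene and no outlying library. That test does not show how the fit treats a library such as PKM2-/- MI 1. edgeR 4.0.16 and DESeq2 1.42.0 on the recovered reads, other scalings, a pseudocount of 0.1, no filter, only the groups compared, a replicate block and leaving out each library were the alternatives. Where a group was left with 1 library, that library was assumed to vary like the other groups. Correlations used 100000 permutations over all libraries, or every permutation within groups (SciPy 1.17.1), with adjustment over the 15 pairs. Transcripts and promoters were aligned with Biopython 1.88, using the GENCODE annotation for transcripts and overlapping genes and RefSeq promoters of GRCm38.p6 (5 of 6 members had an entry).

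Named genes were the 6 members, the other globins, up to 5 genes with the smallest adjusted p of each other list with its defining markers, and the 10 genes most like the globins. Genes named for being highest in PKM2-/- MI 1, or for few reads, were picked with their values in view. The members and lists were chosen with earlier results of these data known. Some genes that these rules name are not reported here.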

Additional observations from a re-analysis of the deposited data

How the results depend on the processing

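Of the alternatives, those that changed the number of members called all concerned MI against sham in PKM2-/- hearts: limma called 4 with total count scaling, 1 with scaling to reads outside the rRNA-related loci and 2 without PKM2-/- MI replicate 3, and edgeR and DESeq2 called 1 each, against 0 as reported. The cause was not tested, beyond the shift of the median of all genes given with the scalings. The number of all genes called was less stable, for instance 2 at baseline against 41 with only the groups compared, 44 with total count scaling, 18 with DESeq2, 1 with edgeR and 1 with the replicate block. For the other comparisons the range with all libraries kept was 0 to 113 for the genotype difference after sham, 6 to 271 after MI, 1 to 237 for sham against baseline in PKM2fl/fl hearts, 363 to 642 in PKM2-/- hearts and 0 to 54 for the interaction. MI against sham gave 4714 to 5347 and 5817 to 6937. With a library left out, the ranges were 0 to 40 at baseline, 0 to 49 after sham, 11 to 632 after MI (85 as reported), 7 to 212 (35 as reported) and 243 to 588 for sham against baseline, 3813 to 5344 and 5646 to 5977 for MI against sham, and 0 to 226 for the interaction. The values 632 and 226 came without PKM2fl/fl MI 3, 212 without PKM2fl/fl sham 3, 40 without PKM2-/- baseline 1, 49 without PKM2-/- sham 3 and 243 without PKM2-/- baseline 2.

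Log2 changes near 0 changed sign under some settings. Total count scaling gave -0.022 for Hba-a2 after MI in PKM2fl/fl hearts, 0.38 for Slc4a1 after MI in PKM2-/- hearts and 0.11 for Alas2 after sham in PKM2-/- hearts. Scaling outside the rRNA-related loci gave 0.054 for Hbb-bt and 0.11 for Alas2 after MI in PKM2fl/fl hearts and 0.22 for Slc4a1 after MI in PKM2-/- hearts. For the last, DESeq2 gave 0.37 and edgeR 0.40, and for Slc4a1 after sham in PKM2fl/fl hearts DESeq2 gave 0.10 and edgeR 0.16. With the replicate block, the sham change was 0.014 for Alas2 and 0.14 for Slc4a1 in PKM2fl/fl hearts and 0.0027 for Alas2 in PKM2-/- hearts. Same-numbered libraries had correlations of deviations between -0.20 and 0.13, so the numbers were not taken to pair mice, and the block changed no call of a member.

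Leaving out a library in turn turned these log2 changes. For the genotype difference at baseline the ranges were Hba-a2 -0.95 to 0.28, Hbb-bs -0.67 to 0.29 and Hbb-bt -0.78 to 0.39. For the genotype difference after sham the ranges were Hbb-bs -0.36 to 0.037, Hbb-bt -0.49 to 0.16 and Alas2 -0.38 to 0.12. For the genotype difference after MI the ranges were Hba-a1 -0.51 to 0.72, Hba-a2 -0.64 to 0.72, Hbb-bs -0.31 to 0.46, Hbb-bt -0.29 to 0.94, Alas2 -0.22 to 0.57 and Slc4a1 -0.53 to 1.41. For MI against sham in PKM2fl/fl hearts the ranges were Hba-a2 -0.022 to 0.27, Hbb-bt -0.31 to 0.0798 and Alas2 -0.13 to 0.11. For MI against sham in PKM2-/- hearts the ranges were Hba-a2 -0.034 to 1.32, Hbb-bt -0.11 to 1.12, Alas2 -0.10 to 0.69 and Slc4a1 -1.06 to 0.88. For sham against baseline in PKM2fl/fl hearts the ranges were Hbb-bs -0.12 to 0.84, Hbb-bt -0.13 to 1.04, Alas2 -0.22 to 0.018 and Slc4a1 -0.79 to 0.66. For sham against baseline in PKM2-/- hearts the ranges were Hba-a1 -0.34 to 0.87, Hba-a2 -0.19 to 1.04 and Alas2 -0.35 to 0.16. For the interaction the ranges were Hba-a1 -0.14 to 1.09, Hba-a2 -0.19 to 1.17, Hbb-bs -0.15 to 0.62, Hbb-bt -0.038 to 1.19, Alas2 -0.082 to 0.71 and Slc4a1 -1.93 to 0.017. In 667 further settings of single genes the sign stayed and no call changed, 4 of them DESeq2 values at baseline without an adjusted p, and in 9 a member crossed the threshold, all in MI against sham in PKM2-/- hearts. Groups of 2 or 3 hearts limit what could be detected.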
